A study of Mus musculus with 6 samples.

Results

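The array carried 45037 probe sets besides controls, and 1879 of them form the group described here: probe sets with a mean signal of at least log2 6 over the 6 arrays for which the platform annotation used here gave no gene symbol. A probe set is a group of short oligonucleotides that together read 1 transcript. Of 9160 probe sets without a symbol, the other 7281 read below that level, while 15268 of the 34945 with a single symbol reached it. Members were chosen by their mean signal over all 6 arrays and the missing symbol, with earlier results of these data known. The treatment difference was not itself a criterion. The choice was still not independent of treatment, because that mean includes the treated arrays. It admitted 283 members with a vehicle mean under log2 6 and 44 with a treated mean under it. These probe sets have no gene name here, which does not mean that they read no gene, so they are given by identifier alone.

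Samples were the dorsal and lateral prostate lobes of intact male TRAMP mice, all (C57BL/6 TRAMP x FvB) F1. TRAMP mice carry SV40 T antigens driven by the probasin promoter in prostate epithelium, and animals without the transgene were not analysed here. The treated group (3 mice) received the compound code-named OSU-CG5 by gavage at 100 mg/kg per day for 4 weeks from 6 weeks of age, and the control group (3 mice) received vehicle over the same period. At 10 weeks of age, between 2 and 4 h from the final gavage, tissue was collected, and 1 array was run per mouse. Where the labels do not say more, p-values set the group difference against the spread between the samples within each group. Some labels of treated samples carry another number in the compound's name, and the tissue source label was followed. Values are log2 expression, and the number of arrays limits the precision.

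As background, many probe sets of this array type were designed from expressed sequence tags, short reads of cDNA clones. Such clones sample mature messages, alternative 3' ends, noncoding RNA and unspliced nuclear RNA alike, and tags that never joined a gene model keep no symbol. The end of an identifier tells how specific the oligonucleotides were meant to be. A plain _at set was designed for 1 transcript, _a_at sets share oligonucleotides between transcripts of the same gene, _s_at sets between transcripts of different genes, and _x_at sets hold some that may bind unrelated transcripts.

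The tissue label was checked first. Of 12 prostate epithelial genes 9 were measured, and their mean log2 level was 11.9 to 12.0 on the vehicle arrays and 11.9 to 12.2 on the OSU-CG5 arrays. Tgm4 and Pbsn, secretory products of the prostate, averaged 13.8 and 13.7 in vehicle. Vehicle replicate 2 stood apart from the other arrays. Its mean over 7 of 9 seminal vesicle transcripts measured was 7.58, against 3.99 and 4.98 in the other vehicle mice and 3.59 to 4.44 with OSU-CG5. Among the members its Pearson correlations across probe sets with the other arrays were 0.773 to 0.901, and those between the other 5 arrays were 0.935 to 0.989. Probe sets are not independent replicates, and these correlations only describe the arrays.

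With OSU-CG5 most of the unnamed probe sets read higher. Their median log2 difference was 0.43, and 1389 of 1879 (73.9%) were above 0. Over all tested probe sets the median was -0.059 with 39.5% above 0, and the single-symbol probe sets at the same minimum signal had a median of -0.0038 with 49.4% above 0. The unnamed probe sets covered a wider range, from -0.81 to 2.35, with an SD over probe sets of 0.55 against 0.32 for the single-symbol ones. None of them passed the adjusted threshold, so the differences that follow are a description of these 6 mice. In bulk tissue a change in the share of a cell type and a change in RNA per cell cannot be told apart.

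The spread had a pair of modes rather than a single shifted peak. Between log2 differences of -0.25 and 0 lay 338 members (18.0%), between 0 and 0.25 lay 287 (15.3%), and between 0.25 and 0.58, where the histogram dips, 277 (14.7%). Between 0.58 and 1 there were 441 (23.5%) and between 1 and 1.5 another 342 (18.2%). These ranges are of unequal width, so the modes are read from the equal bins of the histogram. Of the single-symbol probe sets 34.6% lay between -0.25 and 0 and 3.92% between 0.58 and 1. At least 1.5-fold higher with OSU-CG5 were 825 members (43.9%), where 5.88% of all tested probe sets were and 9.62% of all at this signal level. At least 1.5-fold lower were 8 members, where 0.5% of all tested and 0.755% at this level were. At least 2-fold higher were 384 members (20.4%), where 1.99% of all tested and 3.7% at this level were. None was 2-fold lower, where 0.0422% and 0.0341% were. The unnamed probe sets thus made up 10.7% of all 17617 probe sets at this signal level and 59.0% of the 651 that were at least 2-fold higher. Of the 384, however, 114 had a vehicle mean under log2 6 and entered only through the treated arrays, where they were high. The other 270 reached the minimum in both groups. Without vehicle replicate 2 the 2-fold count of members was 53 and the 1.5-fold count 458 (6 lower), while 75.4% of members were still above 0. The 2-fold count was 590 without vehicle replicate 3. Of 1.5-fold lower members there were 15 with vehicle replicate 1 left out, 19 with vehicle replicate 3 or OSU-CG5 replicate 1 left out, and 12 with OSU-CG5 replicate 2 left out.

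**Figure D1:**
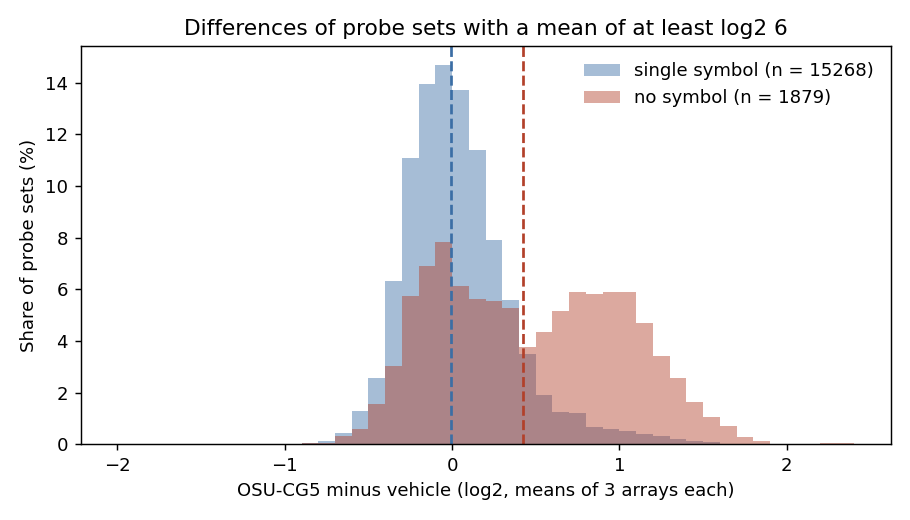
Histogram of the log2 difference (OSU-CG5 mean minus vehicle mean, 3 arrays each, horizontal axis) as the share of probe sets (%, vertical axis), for 1879 probe sets without a symbol and 15268 with a single symbol, all with a mean of at least log2 6; dashed lines are the medians, 0.43 and -0.0038. Probe sets without a symbol have a peak near 0 and a second, broad one near 1.

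The treatment test asked which of these differences exceeded the spread between mice. In limma 0 members, and 0 of the 45037 probe sets (0%), reached an adjusted p below 0.05, and the lowest value among members was 0.112. Before adjustment, 892 members were higher at p under 0.05 (47.5%, where 9.63% of all tested and 15.7% at this signal level were). Lower were 73 (3.89%, where 6.8% and 6.29% were). With an unadjusted p under 0.01 and at least 1.5-fold, 424 were higher (22.6%, where 2.93% of all tested and 4.6% at this level were) and 4 lower (where 0.222% and 0.329% were). The OSU-CG5 arrays lay above every vehicle array for 943 members (50.2%, where 11.7% of all tested and 19.4% at this level did). They lay below for 101 (5.38%, where 11.9% and 9.39% did). The adjusted count depended on single mice: leaving out vehicle replicate 2 gave 175 members in limma, 174 of them higher, where 0.888% of all tested probe sets passed. Leaving out vehicle replicate 3 gave 258, 257 of them higher, where 1.97% of all tested passed, and leaving out any other array gave 0. The 424 became 709 when vehicle replicate 3 was left out, and 226, 198 and 262 when OSU-CG5 replicates 1, 2 and 3 were left out in turn. The 4 lower ones became 11 when vehicle replicate 1 was left out, 10 for vehicle replicate 3, 10 for OSU-CG5 replicate 1 and 1 for OSU-CG5 replicate 3.

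The minimum signal itself admitted members unevenly. A vehicle mean under log2 6 was found for 283 members (15.1%), which entered through their OSU-CG5 arrays, and an OSU-CG5 mean under log2 6 for 44. The other 1552 reached the minimum in both groups, with a median log2 difference of 0.32, and 270 of them were at least 2-fold higher. Choosing by the vehicle arrays alone gave 1639 probe sets with a median of 0.27, and choosing by the OSU-CG5 arrays alone gave 2094 with a median of 0.56. Just inside the threshold lay 1419458_at, 1440010_at and 1440685_at, with log2 differences of -0.030, 0.86 and -0.080. Just outside it lay 1444111_at, 1416806_at and 1456347_at, with 0.15, -0.089 and 0.46.

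The size of the difference depended on signal level. At a mean of log2 6 to 7 the 983 members had a median log2 difference of 0.49, and at 7 to 8 the 504 members had 0.67, the highest of the 5 levels. It was 0.34 for the 200 members at 8 to 9, 0.083 for the 92 at 9 to 10 and 0.058 for the 100 at 10 and over. Single-symbol probe sets of the same levels had medians of -0.073, -0.0037, 0.040, 0.064 and 0.035. From 9 upward the medians of unnamed and named probe sets therefore lay close together, and below 9 they did not. The upper ends still differed among the bright ones. Of the members at 10 and over, 13 (13%) were at least 1.5-fold higher, where 1.75% of named ones were, and at 9 to 10 the shares were 12% and 3.17%. At 7 to 8 they were 54.0% (272 members) and 6.68%. Below the threshold the unnamed probe sets at 5 to 6 had a median of 0.11 (1620 probe sets), and those at 4 to 5 had -0.047, against -0.12 for single-symbol probe sets at each of these levels.

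**Figure D2:**
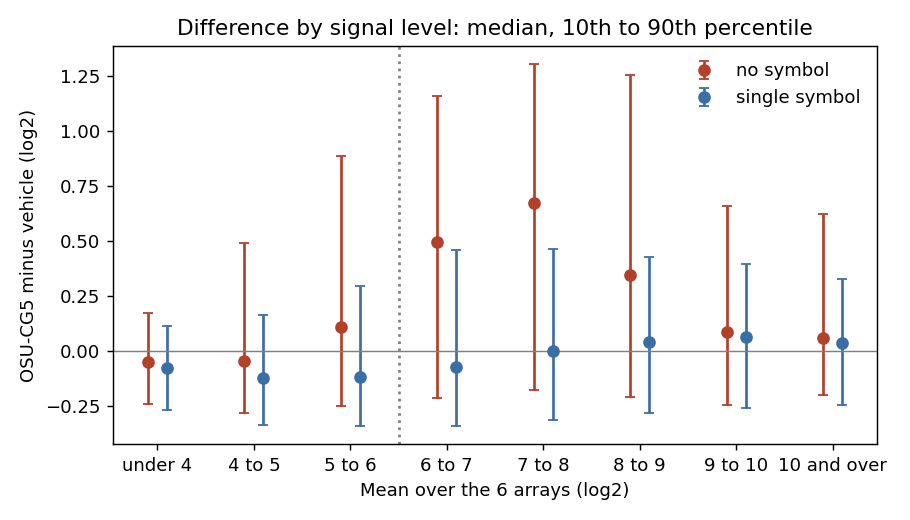
Median log2 difference (points, vertical axis) with the 10th to 90th percentile over probe sets (bars) by mean log2 signal over the 6 arrays (horizontal axis), for probe sets without a symbol and with a single symbol. The dotted line marks the minimum of log2 6; the unnamed median is highest at 7 to 8, at 0.67, and near that of the named ones from 9 upward.

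The brightest members read nearly the same in both groups. 1449436_s_at averaged 14.40 ± 0.083 (SD, n = 3) on the vehicle arrays and 14.38 ± 0.041 (SD, n = 3) on the treated ones. The next were 1435643_x_at, 1416624_a_at, 1453723_x_at and 1455892_x_at, with log2 differences between -0.076 and 0.0038. All 5 carried a suffix other than the plain one, and their groups overlapped.

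Suffixes divided the members. The 1628 plain _at sets had a median log2 difference of 0.58, with 78.6% above 0. At least 1.5-fold higher were 802 of them (49.3%), where 7.27% of plain single-symbol sets were. The 98 _a_at sets had a median of -0.045, the 54 _s_at sets -0.050 and the 99 _x_at sets -0.027, and 5, 4 and 14 of them were at least 1.5-fold higher. The median was therefore above 0 in the plain sets alone among the 4 suffixes, and plain sets made up 86.6% of the members and 376 of the 384 that were 2-fold higher. Plain sets also differed from the others in identifier number, as described below. Without vehicle replicate 2 the plain median was 0.34, with 445 at least 1.5-fold and 52 at least 2-fold higher, and that of the other suffixes together was -0.020. Single-symbol probe sets had medians of 0.029 for _at, -0.043 for _a_at, -0.021 for _s_at and -0.17 for _x_at. The unnamed _x_at sets thus lay above the named ones, with 47.5% against 22.4% above 0 and 14.1% against 0.611% at least 1.5-fold higher. For _a_at the 1.5-fold shares were 5.1% and 2.09%, and for _s_at 7.41% and 2.54%. The suffixes also differed in brightness, since the 251 members of other suffixes had a median level of 8.22 to 8.31 on the vehicle arrays against 6.25 to 6.88 for the plain ones. At equal level the gap was still present: at 6 to 7 the 918 plain members had a median of 0.57 and the 65 others -0.068, and at 8 to 9 the 164 plain members had 0.53 and the 36 others -0.047. At 10 and over the 31 plain members had 0.16 and the 69 others -0.012. The plain single-symbol sets had -0.053, 0.031, 0.080, 0.11 and 0.11 from the lowest level to the highest, and the plain unnamed ones 0.57, 0.72, 0.53, 0.16 and 0.16. At equal suffix and level a wide gap was thus present below 9 and a narrow one from 9 upward.

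Array by array, the vehicle mice differed among themselves as well as from the treated ones. The median level of the 1879 members was 6.83, 6.35 and 6.97 on vehicle arrays 1 to 3 and 7.25, 7.29 and 7.20 on OSU-CG5 arrays 1 to 3. The groups did not overlap on this median, the 3 treated mice lay close together, and vehicle replicate 2 lay well below its group. The single-symbol probe sets had medians of 7.55, 7.68 and 7.63 in vehicle and 7.72, 7.62 and 7.64 with OSU-CG5, with overlapping groups, and there vehicle replicate 2 was the highest vehicle array.

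Every treated mouse was above every vehicle mouse in the median of the members. Against vehicle replicate 2 the median differences of the OSU-CG5 arrays were 0.73, 0.74 and 0.66. Against vehicle replicate 1 they were 0.36, 0.36 and 0.30, and against vehicle replicate 3 they were 0.26, 0.25 and 0.19. In each of these 9 pairs between 71.0% and 76.6% of members were higher in the treated mouse. Differences of similar size were found between vehicle replicate 2 and its group: replicate 1 was above it by a median of 0.34, and replicate 2 minus replicate 3 had a median of -0.46. Vehicle replicate 1 minus replicate 3 had a median of -0.11, smaller in size than any of the 9 treated and vehicle pairs. Between OSU-CG5 mice the medians were -0.034, 0.059 and 0.075.

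Vehicle replicate 2 held the lowest value of the 6 arrays for 1153 members (61.4%), and for 23.0% of single-symbol probe sets. For 670 members (35.7%) the arrays were ordered with vehicle replicate 2 lowest, then vehicle replicate 1, then vehicle replicate 3, and all OSU-CG5 arrays above. Of single-symbol probe sets 7.14% had that order. Of the 384 members at least 2-fold higher, 381 had their lowest value in vehicle replicate 2. The median of these 384 against the vehicle mean was -0.91 in vehicle replicate 2, 0.34 in replicate 1 and 0.59 in replicate 3, and 1.25, 1.29 and 1.08 on the OSU-CG5 arrays. The within-group SD had a median over members of 0.31 in vehicle and 0.14 with OSU-CG5 (n = 3 each), and between vehicle replicates 1 and 3 alone it was 0.14. For single-symbol probe sets these medians were 0.21, 0.13 and 0.11. The SD of replicates 1 and 3 rests on 2 arrays, and its median tends to be lower than that of 3 arrays. It is therefore not directly comparable with the treated value. The median log2 difference of the members was 0.29 without vehicle replicate 2, with 0.036 for the single-symbol probe sets.

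**Figure D3:**
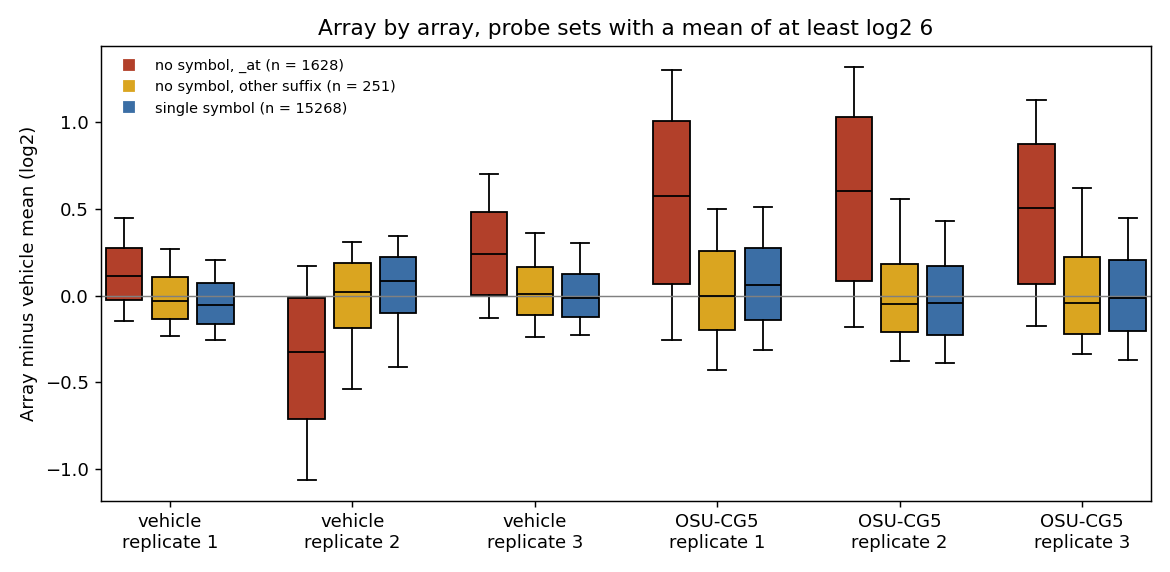
Each array's log2 value minus the mean of the 3 vehicle arrays (vertical axis), for 1628 plain _at members, 251 members of other suffixes and 15268 single-symbol probe sets; boxes span the quartiles with the median, whiskers the 10th to 90th percentile over probe sets. The plain members are lowest in vehicle replicate 2, with a median of -0.33, and highest on the OSU-CG5 arrays, with 0.50 to 0.60, while the medians of the other sets stay near 0.

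Measures of other RNA classes moved with this pattern over the arrays, and their part in it was not tested. A control probe set for the B1 repeat, a short interspersed element common in introns, read 10.11, 9.26 and 10.28 on vehicle arrays 1 to 3 and 10.45, 10.49 and 10.27 on the OSU-CG5 arrays. The lowest array was again vehicle replicate 2, and the groups overlapped narrowly, at vehicle replicate 3. The control for the B2 repeat read 14.16, 13.96 and 14.14 in vehicle and 14.27, 14.37 and 14.37 with OSU-CG5, without overlap. Of 15 noncoding RNAs listed as nuclear or long noncoding transcripts, 14 were measured and 12 were above 0, with a median log2 difference of 0.38. The mean log2 level of that list was 7.54, 6.86 and 7.70 in vehicle and 7.86, 7.95 and 7.81 with OSU-CG5, without overlap. At an unadjusted p under 0.05 in limma, 6 of the 14 were higher and 1 lower, where 9.63% and 6.8% of all tested probe sets were. Of the 14, 0 passed limma's adjusted threshold.

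Vehicle replicate 2 was the lowest of the 6 arrays for 10 of the 14 and the highest for 1, Miat (6.36 there, 6.25 and 6.12 in the other vehicle mice, 5.82 to 6.07 treated). The 4 described next were picked after the values were seen. Neat1, the scaffold RNA of paraspeckles, read 9.39, 8.19 and 9.52 in vehicle and 10.37, 10.44 and 10.55 with OSU-CG5 (log2 difference 1.42, SE 0.31; limma adjusted p = 0.151). Malat1, a nuclear speckle RNA, read 9.60, 8.44 and 10.46 in vehicle and 10.21, 11.39 and 11.28 with OSU-CG5, with overlapping groups. Kcnq1ot1, an antisense RNA of an imprinted locus, read higher by 1.21 (log2; SE 0.29; limma adjusted p = 0.159). Tug1 read 10.07, 9.37 and 9.96 in vehicle and 10.50, 10.44 and 10.44 with OSU-CG5. Vehicle replicate 2 was the lowest array for all 4 of these RNAs.

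Markers of other cell types and of RNA integrity were set beside the members in the same way, and their part was not tested. Mean levels were lower with OSU-CG5, without overlap, for 14 macrophage and antigen-presenting genes (7.17 to 7.56 in vehicle, 6.72 to 7.01 treated), 10 fibroblast genes (8.59 to 8.65 and 8.06 to 8.57), 11 lymphocyte genes (5.23 to 5.35 and 5.05 to 5.18), 10 endothelial genes (5.63 to 5.82 and 5.25 to 5.40) and 11 skeletal muscle genes (5.50 to 6.07 and 4.70 to 5.39). The fibroblast groups nearly touched, at 8.586 and 8.574, and 1 of these genes, Dcn, read higher by 0.23. Of the lymphocyte genes 2 were above 0. In the order given, the lists had median log2 differences of -0.46, -0.36, -0.18, -0.38 and -0.62. Single-symbol probe sets had medians of -0.12 at log2 4 to 5 and 5 to 6, -0.0037 at 7 to 8 and 0.040 at 8 to 9. The 9 smooth muscle genes overlapped, at 9.43 to 9.70 and 9.19 to 9.48. The 3' minus 5' signal of Gapdh, which grows as RNA degrades, was 2.15, 2.26 and 2.76 in vehicle and 2.72, 3.03 and 2.94 with OSU-CG5. That of Actb was 2.91, 2.92 and 3.15 in vehicle and 2.97, 3.11 and 3.01 with OSU-CG5. That of Pcx was 1.24, 1.60 and 1.66 in vehicle and 1.54, 1.23 and 1.48 with OSU-CG5. The treated mean was above the vehicle mean for Gapdh and Actb and below it for Pcx. All overlapped between groups, and none was at an extreme in vehicle replicate 2.

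The identifier number carried information that the choice of members had not used. In blocks of 3000 numbers, the share of probe sets without a symbol was 3.61% in the lowest block (numbers from 1415000) and 57.0% in the block from 1445000. Members of the 3 lowest blocks had median log2 differences of -0.057, -0.057 and -0.039, and those of the blocks from 1439000, 1442000 and 1445000 had 0.81, 0.80 and 0.69. The block from 1448000 had -0.11, and the block from 1457000 again had 0.81. Unnamed probe sets of the 3 lowest blocks thus lay with the named ones, and the largest shifts were in blocks where many probe sets had no symbol. Blocks with fewer unnamed probe sets also shifted. The block from 1430000, with 24.0% unnamed, had a median of 0.53, and that from 1454000, with 17.2%, had 0.49. The blocks from 1424000, 1427000, 1433000, 1436000 and 1460000, with 5.83% to 15.7% unnamed, had medians of 0.16, 0.12, 0.15, 0.29 and 0.34. The block from 1451000 had -0.025.

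A split by number was drawn after these values were seen, and it is given without a test. The 1037 members numbered 1439000 to 1447999 or from 1457000 had a median log2 difference of 0.76, with 86.3% above 0, and 314 of them (30.3%) were at least 2-fold higher. The other 842 members had a median of 0.098, with 58.7% above 0, and 70 (8.31%) were at least 2-fold higher. Late numbers, here meaning those stretches and not the blocks between them, held 81.8% of the 2-fold higher members and 55.2% of all members. The block medians were known when the split was drawn, so this excess follows in part from the choice and is no support. Suffix and number went together: the 990 plain members of late number had a median of 0.78, and the 638 plain members of other numbers 0.18. Late members of other suffixes were few, with medians of 0.045 for 33 _x_at, 0.0048 for 11 _s_at and -0.20 for 3 _a_at sets. Those of other numbers had -0.031, -0.054 and -0.039. Whether the shift followed suffix or number was not tested. The single-symbol probe sets of late number had a median of 0.063 (1732 probe sets), against -0.0093 for the 13536 of other numbers. Among those late ones, 851 were not the brightest probe set of their gene and had a median of 0.24, and 881 were the brightest and had -0.037. The secondary late sets of named genes therefore lay between the unnamed late sets and the other named sets. Without vehicle replicate 2 the unnamed medians were 0.47 for late and 0.097 for other numbers, and the 2-fold counts were 44 and 9. After repeated quantile normalization the median of other numbers was 0.029. Late members had their lowest value in vehicle replicate 2 in 79.0% of cases, and members of other numbers in 39.7%.

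**Figure D4:**
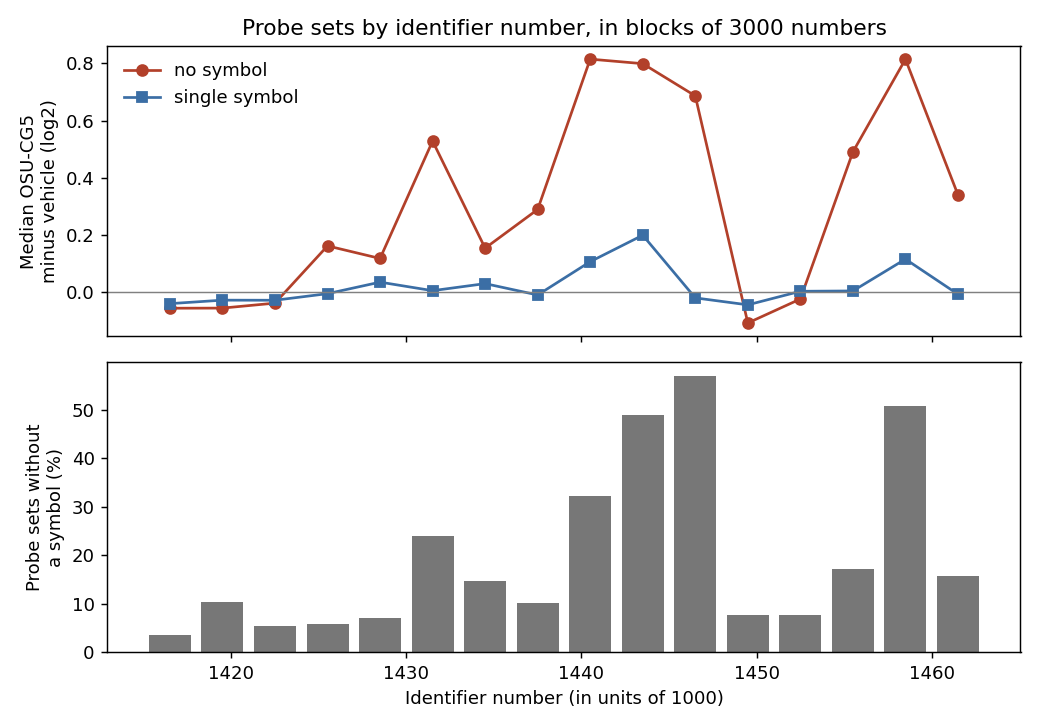
Upper panel, median log2 difference of probe sets that reached log2 6 on average, in blocks of 3000 identifier numbers (horizontal axis), without a symbol and with a single symbol; lower panel, share of all probe sets of the block without a symbol (%). The blocks from 1439000 to 1447999 and from 1457000 to 1459999 have unnamed medians of 0.69 to 0.81 and unnamed shares of 32.2% to 57.0%.

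At least 1.5-fold higher without overlap were 756 members (40.2%), where 5.06% of all tested and 8.53% at this signal level were, and the 15 with the smallest unadjusted p are described. Of these 15, 5 had a vehicle mean under log2 6 and reached the minimum signal only through the OSU-CG5 arrays, where they were high: 1440513_at, 1444670_at, 1458159_at, 1442785_at and 1442992_at. 1440513_at, first of them, read 5.87, 5.59 and 5.94 in vehicle and 6.99, 7.17 and 6.80 with OSU-CG5. Its groups were 0.87 apart, and the treated mean was higher by 1.19 (log2; SE 0.15; limma adjusted p = 0.112). 1445008_at read 6.05, 6.04 and 6.09 in vehicle and 6.99, 7.44 and 7.11 with OSU-CG5, which put the treated mean higher by 1.12 (log2; SE 0.14; limma adjusted p = 0.114). Its vehicle mice were nearly equal, vehicle replicate 2 included. 1437111_at had as even a vehicle group, with 6.85, 6.86 and 6.90 against 7.56, 7.73 and 7.62, a log2 difference of 0.77 (SE 0.11). 1442632_at read 6.46, 6.34 and 6.42 in vehicle and 7.43, 7.19 and 7.19 with OSU-CG5. In these 3 probe sets the vehicle mice lay close together and apart from the treated ones.

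The largest differences of the 15 had a wider vehicle group. 1458159_at read 5.78, 4.86 and 5.73 in vehicle and 7.19, 7.04 and 7.21 with OSU-CG5, a 3.23-fold difference (log2 difference 1.69, SE 0.23). 1443533_at read 6.79, 6.20 and 7.14 against 8.32, 8.45 and 8.23, a 3.07-fold difference. 1444670_at read 5.83, 5.30 and 5.83 against 6.85, 7.25 and 7.04. In all 3, vehicle replicate 2 was the lowest array, and the groups were over 1 log2 unit apart. 1458159_at and 1444670_at, with vehicle means of 5.46 and 5.65, are among the 5 that entered through the treated arrays. 1458708_at was the brightest of the 15, with 8.09, 7.78 and 8.18 in vehicle and 9.14, 9.21 and 8.97 with OSU-CG5. 1458065_at read 7.04, 6.49 and 6.94 against 7.97, 8.12 and 8.04, and 1446094_at 7.48, 7.15 and 7.58 against 8.38, 8.77 and 8.48. The other 5 were 1444785_at, 1442785_at, 1442992_at, 1456160_at and 1441594_at, with log2 differences of 0.93, 1.25, 1.07, 1.07 and 1.01.

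All 15 were plain _at sets, and 13 had late numbers. Their folds ran from 1.70 to 3.23 and their limma adjusted p from 0.112 to 0.119. Vehicle replicate 2 was the lowest vehicle array in 14 of them. Leaving out vehicle replicate 2, leaving out vehicle replicate 3 or weighting arrays by quality put all 15 past the adjusted threshold in limma, and leaving out any other array put 0 past it. The refits used the arrays that picked the 15 and support nothing on their own.

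The largest positive differences, picked after the values were seen, were smaller without vehicle replicate 2. 1443630_at read 6.14, 3.56 and 6.29 in vehicle and 7.67, 7.88 and 7.48 with OSU-CG5, which put the treated mean higher by 2.35 (log2; SE 0.63; limma adjusted p = 0.177). Without vehicle replicate 2 that difference was 1.46, and with a vehicle mean of 5.33 it too entered through the treated arrays. 1440051_at read 7.13, 3.86 and 7.37 in vehicle and 8.27, 8.58 and 8.11 with OSU-CG5, and its log2 difference of 2.20 became 1.07 without vehicle replicate 2. In both, the OSU-CG5 arrays still lay above the remaining vehicle arrays.

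Lower readings were few and small. Of 101 members with the OSU-CG5 arrays below all vehicle arrays, 5 reached 1.5-fold (0.266% of members, where 0.36% of all tested and 0.528% at this level did). 1434814_x_at read 10.26, 10.64 and 10.24 in vehicle and 9.55, 9.55 and 9.61 with OSU-CG5, a treated minus vehicle value of -0.81 (log2; SE 0.14; limma adjusted p = 0.132). The treated mice were nearly equal, and vehicle replicate 2 was here the highest array. 1420117_at read 7.44, 7.26 and 7.76 against 6.65, 6.98 and 6.81, and 1425145_at 6.88, 7.17 and 7.02 against 6.62, 6.28 and 6.22. 1423954_at read 8.07, 8.496 and 7.97 against 7.93, 7.31 and 7.22, with OSU-CG5 replicate 1 next to the vehicle arrays. 1459740_s_at read 6.50, 6.997 and 7.001 against 6.15, 6.22 and 6.19, and 1459741_x_at, with the next identifier number, read 8.03, 8.16 and 8.22 against 7.42, 7.74 and 7.63.

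The last of these and the remaining 4 of the 10 lower probe sets differed by less than 1.5-fold. 1447052_at had the smallest spread, with 6.37, 6.41 and 6.34 in vehicle and 5.86, 5.90 and 5.94 with OSU-CG5 (log2 difference -0.48, SE 0.11; limma adjusted p = 0.152). Its treated mean of 5.90 was under log2 6, so it reached the minimum signal only through the vehicle arrays, where it was high. 1419023_x_at, 1452452_at and 1435879_at had log2 differences of -0.49, -0.47 and -0.54. Of the 10, 6 were plain sets, 3 were _x_at and 1 was _s_at, and 3 had late numbers. Of the 10, leaving out either vehicle replicate 2 or vehicle replicate 3 put 1, 1434814_x_at, past limma's adjusted threshold, and array weights put 3 past it. Lower members thus differed from the 15 higher ones in suffix and number as well as in direction, which was not tested.

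**Figure D5:**
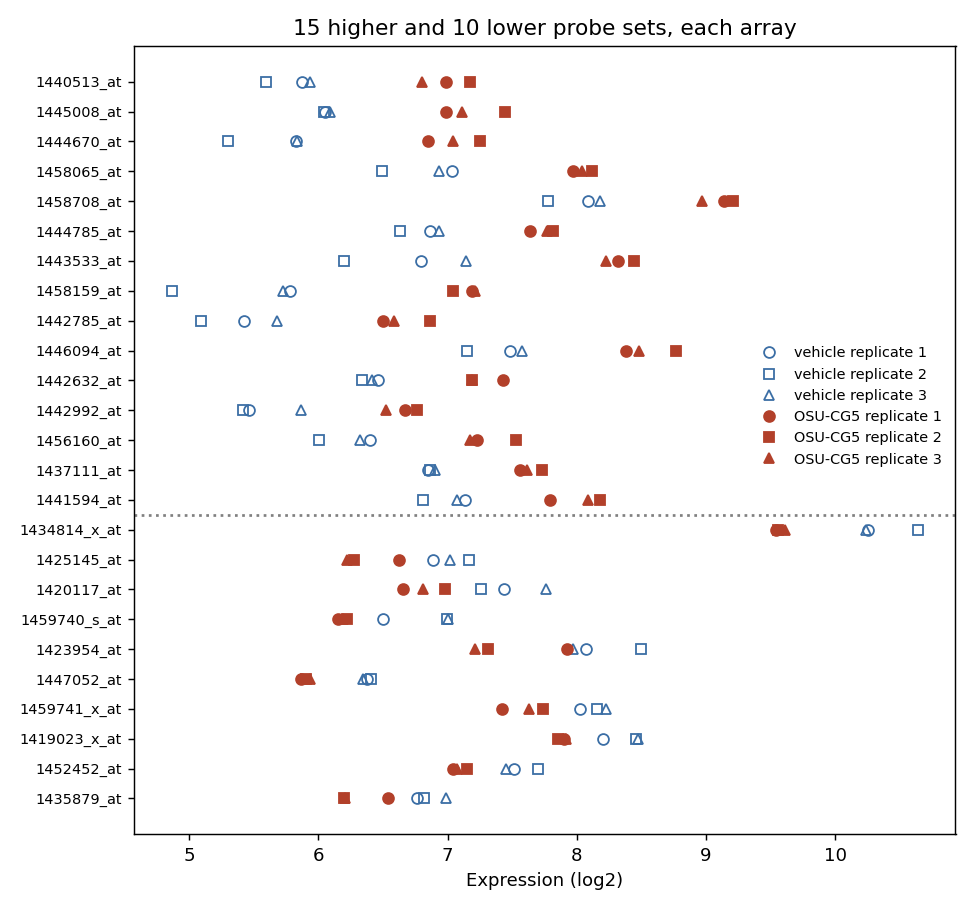
Log2 expression on each array (horizontal axis) of the 15 higher and 10 lower members described, 1 row each; open symbols are the 3 vehicle mice, filled symbols the 3 OSU-CG5 mice, and the dotted line separates higher from lower. Groups do not overlap in any row, which the choice required, and in 14 of the 15 upper rows vehicle replicate 2 is the lowest vehicle array.

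Some members did not follow the main pattern. For 280 members (14.9%) vehicle replicate 2 was the highest array, as it was for 39.2% of single-symbol probe sets, and in none did it stand more than 1 log2 unit above the next. The clearest, picked after the values were seen, was 1423323_at, which read 7.46 there and 6.64 to 6.72 on the other 5 arrays. 1421853_at read 8.30 there and 7.36 to 7.57 elsewhere. Over the OSU-CG5 arrays 11 members (0.585%) spanned at least 2-fold, close to the 0.858% of single-symbol probe sets. 1427820_at, the widest, read 8.39, 7.62 and 9.82 with OSU-CG5 and 8.62, 7.67 and 8.60 in vehicle. 1441593_at read 6.14, 7.69 and 7.41 with OSU-CG5 and 6.23, 5.89 and 5.87 in vehicle. Over all 6 arrays 918 members (48.9%) spanned at least 2-fold, against 13.4% of single-symbol probe sets.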

How the data were processed

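The authors deposited log2 expression values, 1 per probe set and array, made by RMA, per the submitters' processing notes. For the software behind it, the version is not given in the sources used here. RMA gives all arrays a shared distribution, which partly removes a broad shift. Arrays were grouped by the treatment in the tissue source label. Replicate numbers follow the order of the records, name the mice only, and pair none. After removing 64 controls, 45037 probe sets remained, 34945 with a single symbol, 932 with several and 9160 without one in the annotation used here. Probe sequences were not used here.

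limma 3.58.1 in R 4.3.3 (lmFit, eBayes; no filter) compared OSU-CG5 with vehicle, with p-values adjusted by the Benjamini-Hochberg method across the 45037 probe sets (threshold 0.05). SE is the moderated standard error. The procedure was also run on simulated data with independent noise for each probe set. That run held no shift shared across an array, such as that of vehicle replicate 2, so it does not cover that case. Described probe sets are the 15 higher and 10 lower members of smallest unadjusted p without overlap and at least 1.5-fold, the lower ones filled at any fold, the 5 brightest, and the 3 on each side of the minimum. Marker genes were read by their brightest probe set. Alternatives were other normalizations, variance models, array weights, member definitions and leaving out each array. The members and lists were chosen with earlier results of these data known.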

Additional observations from a re-analysis of the deposited data

How the results depend on the processing

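The median log2 difference of the members stayed above 0 under every alternative run, and ranged from 0.29 to 0.55 when each array was left out in turn. It was 0.098, with 91 higher at an unadjusted p under 0.01 and 1.5-fold, when members of late identifier number were left out, a split chosen after seeing the data. No probe set passed the adjusted threshold in limma with all arrays at equal weight under any normalization or variance model run, although 892 members were higher and 73 lower at an unadjusted p under 0.05. With array quality weights 822 probe sets passed, 254 of them members, and 8 members were lower at the descriptive threshold. Leaving out 1 array gave 0 to 885 adjusted calls over all probe sets, 0 to 258 among members, 198 to 709 members higher and 1 to 11 lower at the descriptive threshold. Without moderation the descriptive counts were 74 higher and 1 lower, and with a minimum of log2 7 they were 190 and 2. The lower count was 13 after repeated quantile normalization and 8 with arrays centred on single-symbol probe sets, the latter chosen after seeing the data. None of the 25 described probe sets changed direction under any alternative run on all probe sets. No paired analysis was possible because the groups share no animal or number in the labels. The number of arrays, 3 per group, limits the precision, and vehicle replicate 2 sets much of the size of the differences. The cause of these dependences was not tested.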
